A study of Mus musculus with 7 samples.

Results

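Skeletal muscle is built by a small hierarchy of transcription factors. From that hierarchy 9 genes, chosen by name with earlier results of these data known, were followed in RNA-seq data from mouse embryos lacking SLMAP3. They were the myogenic basic helix-loop-helix (bHLH) factors Myod1, Myf5, Myog and Myf6, the MADS box factor Mef2c, the bHLH repressor Msc (musculin), the homeodomain factors Six4 and Lbx1, and Eya1, a cofactor of Six4 and its relatives. All 9 were among the 25461 genes of the deposited table, and 8 of the 9 were among the 16095 genes tested, which had a mean of at least 1 FPKM (fragments per kilobase of transcript, a level corrected for transcript length and depth) over the embryos. Myf6, at a mean of 0.198 FPKM, was not tested in this way. The question was whether the level of these factors differed between SLMAP3 KO and WT embryos.

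The libraries came from 7 whole embryos of the B6C3F1 strain at E11.5, without the tails, which were taken for genotyping. The 3 KO embryos were KOAC8-6, KOAC10-5 and KOAC10-8, and the 4 WT embryos were KOAC8-1, KOAC10-7, KOAC9-1 and KOAC10-2. No treatment was given, and each library was made from a single embryo. The KO allele came from a Slmap gene with an exon between loxP sites, cut in the germ line after a cross to mice with CMV-cre. The cre was then bred out and heterozygotes were crossed, so that SLMAP3 was lost in every tissue while the SLMAP1 and SLMAP2 isoforms remained. Some embryos of this KO line have an open neural tube, and which of these 3 did was not used here. The number after KOAC (8, 9 or 10), called the label series here, was not said to be a litter or a batch, and KOAC9-1 was the only embryo of series 9.

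In the embryo, proteins of the Six4 and Eya1 families and Pax3 act upstream of the myogenic bHLH factors in the somites. Myf5 and Myod1 commit cells to the muscle lineage, and Myog drives their differentiation, with Mef2c as a partner that binds beside the bHLH factors and is itself their target. Lbx1 marks the precursors that migrate into the limbs, and Msc and the Id proteins hold bHLH factors in check. Several of these genes are also used elsewhere, Mef2c in the heart, vessels and neural crest, Lbx1 in the dorsal spinal cord, and Eya1 and Six4 in the ear, kidney and sensory placodes.

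The promoter of Myog is known as a place where these factors meet, so its sequence is shown, with that of Myf5 beside it for contrast. Each stretch holds 250 bases before the transcription start and 50 after it, 5′ to 3′ on the strand of the gene, from RefSeq on GRCm38.p6. Capitals mark 3 motifs searched on both strands: the E-box CANNTG that bHLH factors bind, the MEF3 letters TCAGGTTTC known from Myog and bound by Six4 and its relatives, and the MEF2 core CTANNNNTA. The first line is chr1:134289754-134290053 on the plus strand and the second is chr10:107486085-107486384 on the minus strand.
Myog: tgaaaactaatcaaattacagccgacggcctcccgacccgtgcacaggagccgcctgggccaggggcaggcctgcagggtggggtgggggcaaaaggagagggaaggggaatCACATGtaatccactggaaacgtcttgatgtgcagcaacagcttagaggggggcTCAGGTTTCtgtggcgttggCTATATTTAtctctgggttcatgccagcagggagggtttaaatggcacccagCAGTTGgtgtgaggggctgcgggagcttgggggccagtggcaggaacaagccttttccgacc
Myf5: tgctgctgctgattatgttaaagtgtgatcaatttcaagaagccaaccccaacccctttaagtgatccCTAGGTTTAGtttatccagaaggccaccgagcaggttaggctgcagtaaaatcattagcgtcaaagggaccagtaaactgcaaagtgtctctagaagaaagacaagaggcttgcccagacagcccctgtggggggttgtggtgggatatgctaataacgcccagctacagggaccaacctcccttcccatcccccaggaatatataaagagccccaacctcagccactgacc

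In the Myog promoter, E-boxes began at -138 (CACATG) and -12 (CAGTTG) from the start, the MEF3 letters at -84 and a MEF2 core at -64 (CTATATTTA). In the Myf5 promoter there were 0 E-boxes and 0 MEF3 matches. Its capitals are 2 overlapping matches to the MEF2 core letters on opposite strands, which began at -182 and -181. The middle letters of that core were left free in the search, so a match need not be a MEF2 site. An E-box stood in 72.3% of the 32851 RefSeq promoters of this length, a match to the MEF2 core letters in 21.0% and the MEF3 letters in 0.429%. Of these motifs as searched, MEF3 alone was rare, and it was the only motif with every letter fixed. The MEF3 letters also occurred once, on the reverse strand, in 1 of the 2 promoters listed for Six4, at -99. Of the 3 promoters listed for Mef2c, 1 held 2 E-boxes and 1 held an E-box and a match to the MEF2 core letters. Promoters of Myod1, Myf6, Msc, Eya1 and Lbx1 were not analysed here.

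The embryos were sequenced to an estimated 54100000 to 82000000 counts on genes. Slmap (chr14:26413168-26534931 on GRCm38, minus strand) stood at 16.0 to 19.6 FPKM in KO against 22.8 to 31.2 FPKM in WT embryos, 65.1% of the WT mean, with all isoforms summed (two-sided exact permutation test, p = 0.0286, as low as the 35 splits of the embryos into 3 and 4 can give). KOAC10-5, KOAC10-7 and KOAC10-2 nearly lacked liver transcripts. Afp, the fetal albumin relative, stood at 1.30 to 5.18 FPKM in them and at 255 to 376 FPKM in the other 4, and Alb (albumin) at 0.313 to 1.63 against 65.2 to 180 FPKM.

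Myog, the factor that drives differentiation, was the most abundant of the 9 and the one that differed most between the genotypes. It lies at chr1:134289989-134292548 (GRCm38, plus strand). Its level was 17.0, 18.3 and 8.24 FPKM in the KO embryos KOAC8-6, KOAC10-5 and KOAC10-8, and 27.6, 29.9, 33.8 and 24.2 FPKM in the WT embryos KOAC8-1, KOAC10-7, KOAC9-1 and KOAC10-2. No KO embryo reached the lowest WT embryo, and KOAC10-8 was far below the other KO embryos. The means were 14.5 ± 5.47 FPKM (SD, n = 3) and 28.9 ± 4.03 FPKM (SD, n = 4), so that KO embryos held 50.3% of the WT level (exact permutation test, two-sided, p = 0.0286). In a bulk sample, fewer muscle cells and less Myog RNA per cell cannot be told apart.

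Myod1, which commits cells to the muscle lineage, followed the same order (chr7:46376474-46379099, plus strand). Its level was 6.69, 7.46 and 3.54 FPKM in the KO embryos and 9.58, 10.96, 12.5 and 8.52 FPKM in the WT embryos, in the order given for Myog. Again the groups did not overlap. The KO mean of 5.90 ± 2.08 FPKM was 56.7% of the WT mean of 10.4 ± 1.73 FPKM (exact permutation test, two-sided, p = 0.0286).

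Myf5, the other factor of commitment, differed less (chr10:107482908-107486134, minus strand). Its level was 1.87, 1.45 and 1.27 FPKM in KO and 1.49, 2.09, 2.10 and 1.62 FPKM in WT embryos. The groups overlapped, since KOAC8-6 was above 2 of the WT embryos. The KO mean was 83.8% of the WT mean (exact permutation test, two-sided, p = 0.257).

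Myf6, its neighbour 6.72 kb away on the same strand (chr10:107492853-107494737), was near the floor in every embryo. Its level was 0.347, 0.163 and 0.130 FPKM in KO and 0.142, 0.135, 0.156 and 0.312 FPKM in WT embryos, which corresponds to an estimated 7 to 25 counts. KOAC8-6 and KOAC10-2, 1 of each genotype, were the high ones, and a difference between the genotypes was not detectable at this depth (exact permutation test, two-sided, p = 0.571).

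Mef2c, the partner and target of the bHLH factors, was the other gene without overlap between the groups (chr13:83504034-83667080, plus strand). It stood at 10.18, 9.37 and 7.35 FPKM in KO and at 13.6, 11.7, 15.7 and 10.49 FPKM in WT embryos. The gap was narrow, between KOAC8-6 and KOAC10-2, and the KO mean was 69.7% of the WT mean (exact permutation test, two-sided, p = 0.0571). Markers of the heart, where Mef2c is also used, summed to 465 to 586 FPKM in KO against 420 to 507 FPKM in WT embryos, and those of endothelium to 102 to 109 and 96.0 to 100.3 FPKM.

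Msc, a repressor found in early muscle and in the pharyngeal arches, stood at 5.87, 7.00 and 4.18 FPKM in KO and 7.85, 7.79, 8.85 and 6.09 FPKM in WT embryos (chr1:14753346-14755992, minus strand). KOAC10-5 lay above the lowest WT embryo, and the KO mean was 74.3% of the WT mean (exact permutation test, two-sided, p = 0.0857). Of the 50-base stretches of its transcripts, 19.0% are shared with Gm9947, an antisense gene at a mean of 0.317 FPKM, and reads of the pair cannot be told apart without strand.

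The upstream and migratory factors showed another picture. Six4 (chr12:73099609-73113456, minus strand) stood at 4.94, 4.31 and 4.28 FPKM in KO and 4.36, 3.86, 3.39 and 3.83 FPKM in WT embryos, 117% of the WT mean (exact permutation test, two-sided, p = 0.114). Eya1 (chr1:14168954-14310235, minus strand, on the same chromosome as Msc and 443 kb from it) stood at 9.17, 9.73 and 11.7 FPKM in KO and 7.82, 9.65, 8.89 and 9.70 FPKM in WT embryos, 113% of the WT mean (exact permutation test, two-sided, p = 0.229). For both genes the groups overlapped, and KOAC10-8, the lowest embryo for Myog, was the highest for Eya1.

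Lbx1, the marker of migrating limb muscle precursors, varied least of the 9 (chr19:45232684-45235812, minus strand). It stood at 4.70, 4.99 and 4.93 FPKM in KO and 4.34, 4.94, 5.41 and 5.08 FPKM in WT embryos, with the KO embryos inside the WT range (exact permutation test, two-sided, p = 0.771). Lbx1 is also made in the dorsal spinal cord, and the share of its RNA that came from muscle precursors was not measured.

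**Figure D1:**
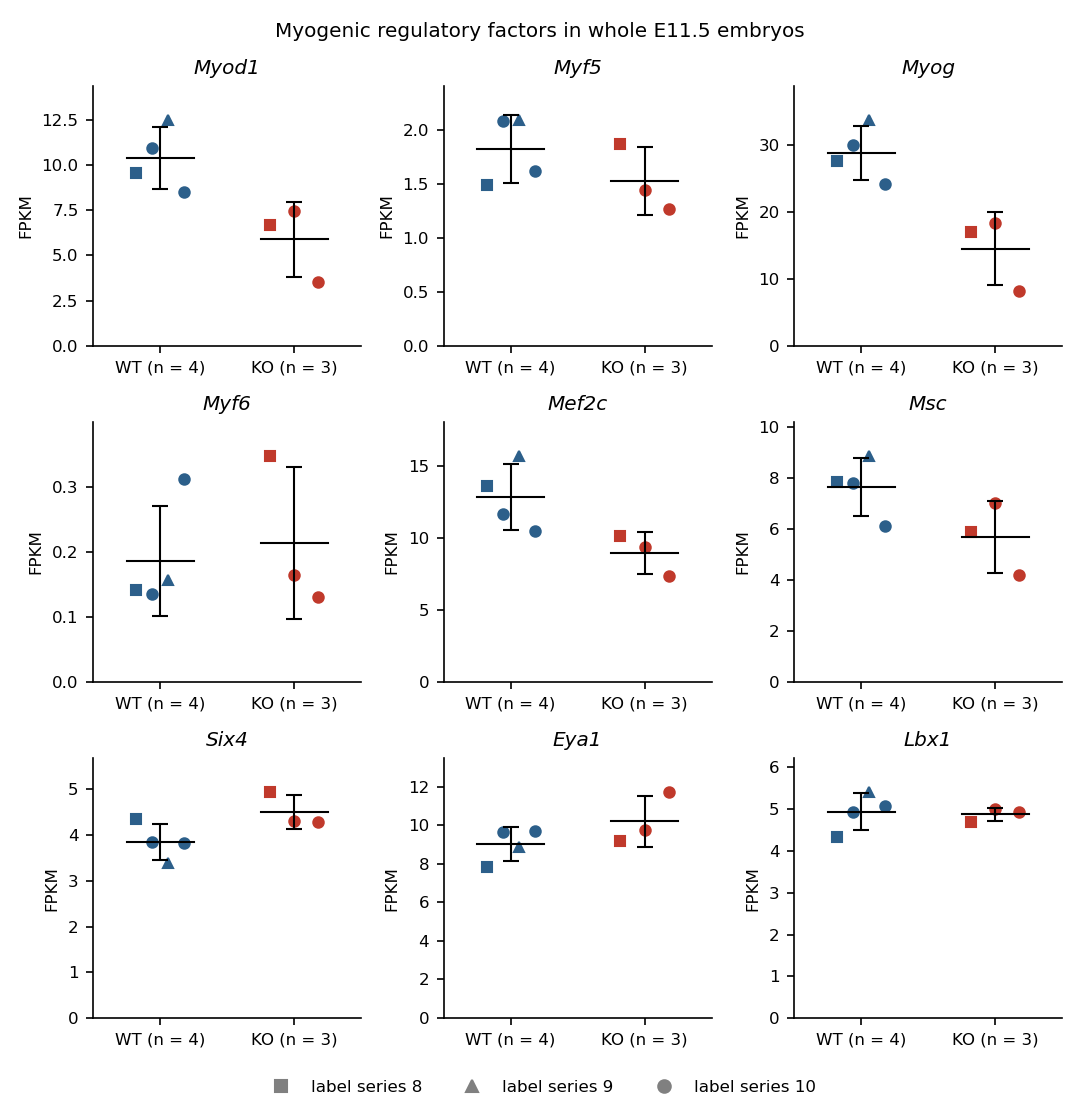
FPKM of the 9 factors in each embryo (points, WT blue and KO red, shape by label series), with the mean and SD of each group as black bars and each vertical axis starting at 0. KO embryos lie below all WT embryos for Myod1, Myog and Mef2c, and the groups overlap for the other 6 factors.

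By level per length in WT embryos, Myog (28.9 FPKM) came first and did not overlap with Mef2c (12.9 FPKM) below it. From Mef2c through Myod1 (10.4 FPKM) and Eya1 (9.02 FPKM) to Msc (7.64 FPKM), each overlapped with the next. Msc did not overlap with Lbx1 (4.94 FPKM) below it. Lbx1 and Six4 (3.86 FPKM) overlapped, whereas Myf5 (1.82 FPKM) and Myf6 (0.186 FPKM) each stood apart. In KO embryos Myog was again first, but at 8.24 FPKM in KOAC10-8 it was below Eya1 at 11.7 FPKM in the same embryo.

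In the limma fit across all 16095 genes, 0 of the 8 factors tested passed an adjusted p of 0.05, where 0.0373% of all genes did. At an unadjusted p under 0.05, 3 of the 8 were lower in KO embryos (Myog, Myod1 and Mef2c) and 0 higher, against 6.19% and 5.27% of all genes. The same 3 of 8 had every KO embryo below every WT embryo and 0 had every KO embryo above, against 5.98% and 5.61% of all genes. The median log2 difference of the 8, KO minus WT on the log2(FPKM + 1) scale, was -0.27, and that of all genes 0.01. The factors were chosen with earlier results of these data known, so these counts are no independent test.

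For Myog the log2 difference was -1.01 (SE 0.26, 95% interval -1.62 to -0.40, limma adjusted p = 0.293), and 304 genes had a smaller p. That of Myod1 was -0.76 (SE 0.23, interval -1.30 to -0.22, limma adjusted p = 0.345), and that of Mef2c was -0.47 (SE 0.15, interval -0.83 to -0.11, limma adjusted p = 0.354). The intervals of the other 5 included 0. They ran from -0.78 to 0.01 for Msc, from -0.46 to 0.14 for Myf5, from -0.20 to 0.17 for Lbx1, from -0.09 to 0.41 for Eya1 and from -0.03 to 0.40 for Six4. For these 5 a change within its interval is not excluded.

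KOAC10-8 was the lowest of the 7 embryos for 6 of the 9 factors, and the WT embryo KOAC9-1 was the highest for 6 of the 9. Without KOAC10-8 the log2 difference of Myog was -0.67, that of Myod1 -0.49, that of Mef2c -0.35, that of Msc -0.21, that of Myf5 -0.08 and that of Eya1 0.07, and Mef2c no longer had an unadjusted p under 0.05. The KO mean was then 61.1% of the WT mean for Myog, 68.1% for Myod1, 75.9% for Mef2c, 91.0% for Myf5 and 105% for Eya1. Both other KO embryos were still below every WT embryo for Myog, Myod1 and Mef2c.

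Within label series 8, with 1 embryo of each genotype, the KO embryo held 61.6% of the WT level of Myog, 69.8% of Myod1, 74.6% of Mef2c and 126% of Myf5. Within series 10, with 2 of each, the shares were 49.0%, 56.5%, 75.5% and 73.1%. Myog, Myod1 and Mef2c were thus lower in KO embryos in both series, while Myf5 went opposite ways. With the series as a block in limma, the log2 differences were -0.93 for Myog, -0.68 for Myod1 and -0.38 for Mef2c. With Afp as a covariate, for the embryos nearly without liver transcripts, they were -0.98, -0.74 and -0.52.

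**Figure D2:**
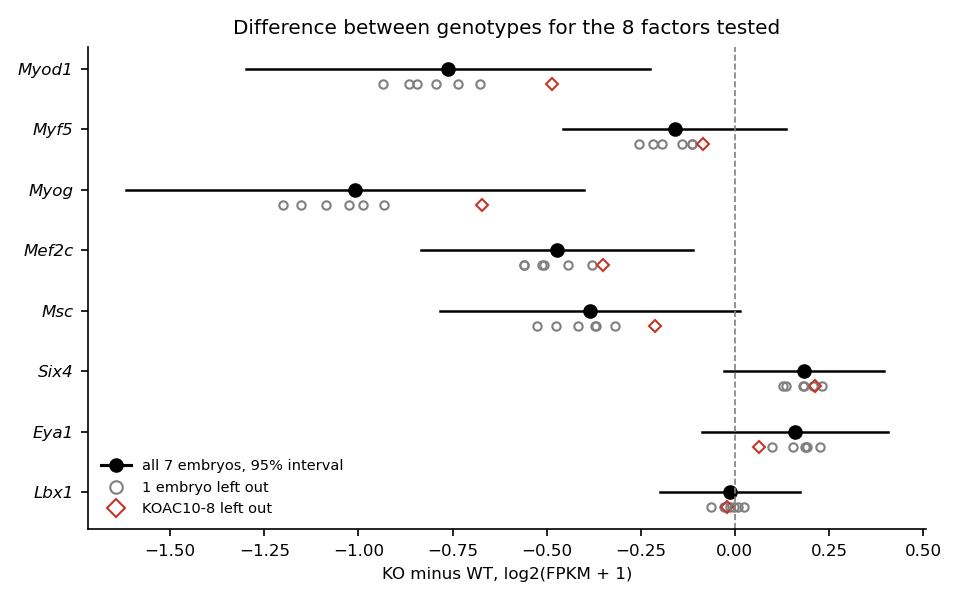
Log2 difference of KO and WT embryos for the 8 factors tested, on the log2(FPKM + 1) scale, from all 7 embryos (black, with 95% intervals) and with each embryo left out (open symbols, KOAC10-8 as a red diamond). The intervals of Myod1, Myog and Mef2c lie below 0, and leaving out KOAC10-8 gives the smallest difference for each of these 3.

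Because a ratio of genes within an embryo does not depend on how that embryo was scaled, the bHLH factors were also compared with each other. Their sum was 25.9, 27.4 and 13.2 FPKM in KO and 38.8, 43.1, 48.5 and 34.6 FPKM in WT embryos. Myog made up 62.5% to 66.8% of this sum in KO and 69.4% to 71.1% in WT embryos, and Myf5 made up 5.29% to 9.61% and 3.84% to 4.85%. Myod1 made up 25.81% to 27.27% in KO and 24.60% to 25.78% in WT embryos, and the shares of Myf6 overlapped. Myog thus took a smaller share in each KO embryo than in any WT embryo, and Myf5 and Myod1 a larger one. These shares depend on each other, since a smaller share of Myog leaves more for the rest.

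The ratio of Myog to Myod1 was 2.54, 2.45 and 2.33 in KO and 2.88, 2.73, 2.70 and 2.84 in WT embryos. KO embryos were below all WT embryos, by 0.19 on the log2 scale (exact permutation test, two-sided, p = 0.0286, adjusted over the 6 pairs of bHLH factors 0.0571).

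The ratio of Myog to Myf5 was 9.08, 12.6 and 6.51 in KO and 18.5, 14.3, 16.1 and 14.9 in WT embryos, with means of 9.41 ± 3.07 and 16.0 ± 1.84. That of Myod1 to Myf5 was 3.57, 5.15 and 2.80 against 6.42, 5.24, 5.97 and 5.26, where KOAC10-5 came close to the lowest WT embryos. The log2 differences of -0.81 and -0.62 had the same p as the first pair (exact permutation test, 0.0286, adjusted 0.0571). None of the 6 pairs passed 0.05 after adjustment, and with 6 pairs an adjusted p at the smallest attainable p of 0.0286 in 3 of them is 0.0571. The 3 ratios to Myf6 rested on its few counts and overlapped between the genotypes (exact permutation tests, adjusted p 0.129 to 0.429).

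**Figure D3:**
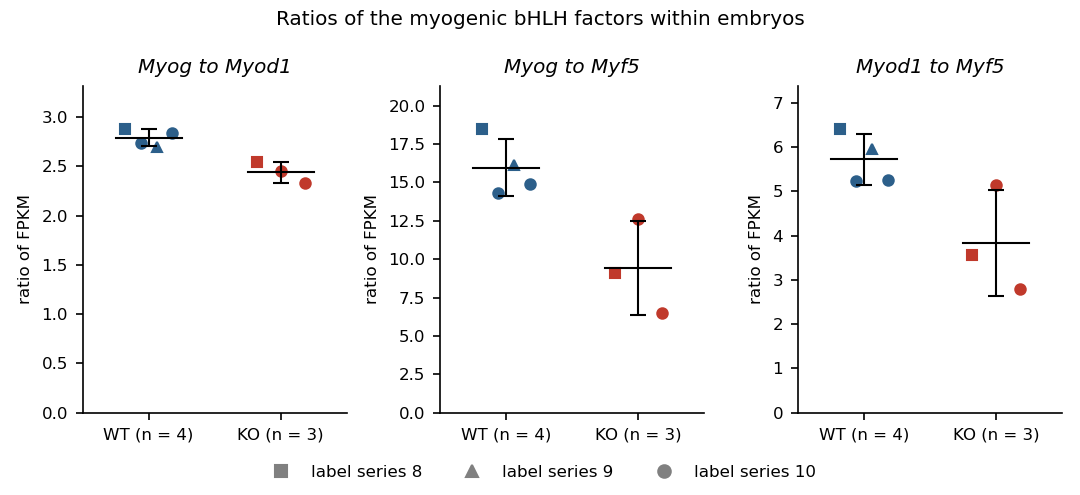
Ratios of FPKM between myogenic bHLH factors in each embryo (points, shape by label series), with the mean and SD of each group and axes from 0. KO embryos lie below all WT embryos for the 3 ratios, with the smallest gap for Myod1 to Myf5, between 5.15 and 5.24.

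Genes of skeletal muscle differentiation, many of them known targets of the bHLH factors, were taken as a list of 24, which was written with lower levels of muscle genes in these KO embryos already known. Of the 20 tested, 17 had an unadjusted p under 0.05 and every KO embryo below every WT embryo, and 0 had either in the other direction. Of all genes, 6.19% were lower at that p and 5.98% had every KO embryo below every WT embryo. The median log2 difference of the list was -0.79, beside 0.01 for all genes. None passed an adjusted p of 0.05 in limma. Mylpf, a myosin light chain, stood at 36.0 ± 13.1 FPKM in KO against 92.2 ± 17.4 FPKM in WT embryos (log2 difference -1.39), and Acta1, skeletal actin, at 11.3 ± 2.81 and 30.8 ± 8.77 FPKM (-1.36). Mybph and Myh3, proteins of the thick filament, differed by -1.25 and -1.23, Tnnt1, a slow troponin, by -0.97, and Neb, the giant protein of the thin filament, by -0.88.

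The summed level of the list was 328, 335 and 247 FPKM in the KO embryos and 475, 468, 627 and 442 FPKM in the WT embryos. KOAC10-8 was lowest and KOAC9-1 highest here as well as for Myog. The embryos nearly without Afp were neither the lowest nor the highest for Myog. Their Myog levels were 18.3 FPKM (KOAC10-5), 29.9 FPKM (KOAC10-7) and 24.2 FPKM (KOAC10-2), and a relation of Afp to Myog was not tested.

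**Figure D4:**
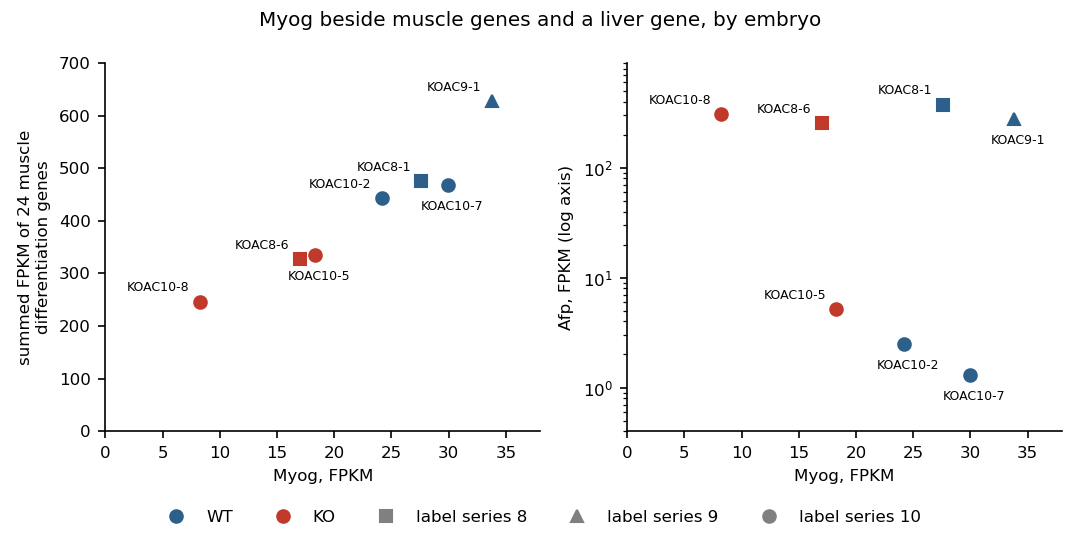
Summed FPKM of 24 skeletal muscle differentiation genes (left, axis from 0) and FPKM of the liver gene Afp (right, log axis) against FPKM of Myog in each embryo (WT blue, KO red, shape by label series). The muscle sum runs from 247 in KOAC10-8 to 627 in KOAC9-1, in nearly the order of Myog, while Afp splits the embryos into 3 low and 4 high ones that each hold both genotypes.

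Upstream of the bHLH factors the differences went both ways. Of 8 somite and migration genes, all tested, 2 were higher and 1 lower by both the unadjusted p and the absence of overlap. The shares of all genes were 5.27% and 6.19% by that p, and 5.61% and 5.98% by the absence of overlap. The median of the list was -0.07. Pax3, which acts ahead of Myod1 in somites and also in the dorsal neural tube, stood at 14.1 ± 1.43 FPKM in KO against 10.99 ± 0.617 FPKM in WT embryos (log2 difference 0.33), and Cxcr4, a chemokine receptor of migrating cells, differed by 0.36. Meox1, a homeodomain factor of the somites, was at 6.71 ± 1.03 and 8.67 ± 0.435 FPKM (-0.33).

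Among 8 relatives of Six4, Eya1 and Dach1, 1 was higher and 0 lower by the same criteria, beside the same shares of all genes. The median was 0.03. The higher gene was Dach1, a cofactor of Six4 and its relatives, at 14.2 ± 0.379 FPKM in KO against 11.8 ± 0.265 FPKM in WT embryos (log2 difference 0.25). Of 3 regulators of head muscle, Tcf21 was lower in KO embryos (-0.43) and the other 2 overlapped. Of 6 MEF2 and E protein partners, 5 were tested and 0 were higher or lower, with a median of -0.03.

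Of 17 inhibitors of myogenic factors, 16 were tested, with a median of 0.07. Of these, 5 had every KO embryo above every WT embryo and 3 below, against 5.61% and 5.98% of all genes. At an unadjusted p under 0.05 the counts were likewise 5 and 3, with Id2 in place of Id1, against 5.27% and 6.19% of all genes. The Notch targets Hes1 and Hey1 were higher in KO embryos, by 0.33 and 0.28, and the repressors Twist2 and Zeb1 lower, by -0.24 and -0.23. The others without overlap, chosen after their values were seen, were Id1 (0.18), Id3 (0.13), Snai1 (0.30) and Mstn (-0.31), myostatin. For each of Id1, Id3, Snai1, Hes1 and Hey1, KOAC10-8 was the highest embryo, and for Mstn it was the lowest.

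Tissues that share these factors were followed by their own markers. The 10 heart markers had a median of 0.24 (0.13 without KOAC10-8), with 3 higher at an unadjusted p under 0.05 and 0 without overlap. The 7 endothelial markers had a median of 0.12, and Kdr (0.19), Pecam1 (0.12), Tek (0.12) and Esam (0.10) had every KO embryo above every WT embryo. Only Kdr and Pecam1 also had an unadjusted p under 0.05 in limma. The 9 dorsal spinal cord markers, of the tissue that shares Lbx1, had a median of 0.12 with 0 past either criterion. Of 8 otic and kidney markers, for Eya1 and Six4, 6 were tested, with a median of 0.00 and Sall1 higher (0.33). The 7 pharyngeal arch markers, for Msc, had a median of 0.12 (0.062 without KOAC10-8, 0.069 without KOAC10-5, 0.074 without KOAC10-7 and 0.24 without KOAC8-6) with Dlx3 higher (0.25). The 6 limb bud markers had a median of 0.06 (-0.069 without KOAC10-2, 0.030 without KOAC8-1 and 0.14 without KOAC10-7). Tbx5 (0.64) had every KO embryo above every WT embryo, but an unadjusted p of 0.174 in limma. For Tbx5 the WT embryo KOAC10-2 was at 1.81 FPKM and the next at 7.61 FPKM. The 6 liver markers had a median of 0.29 and 0 past either criterion. None of the genes of these lists passed an adjusted p of 0.05 in limma, and the part of these tissues in the levels of the 9 factors was not tested.

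**Figure D5:**
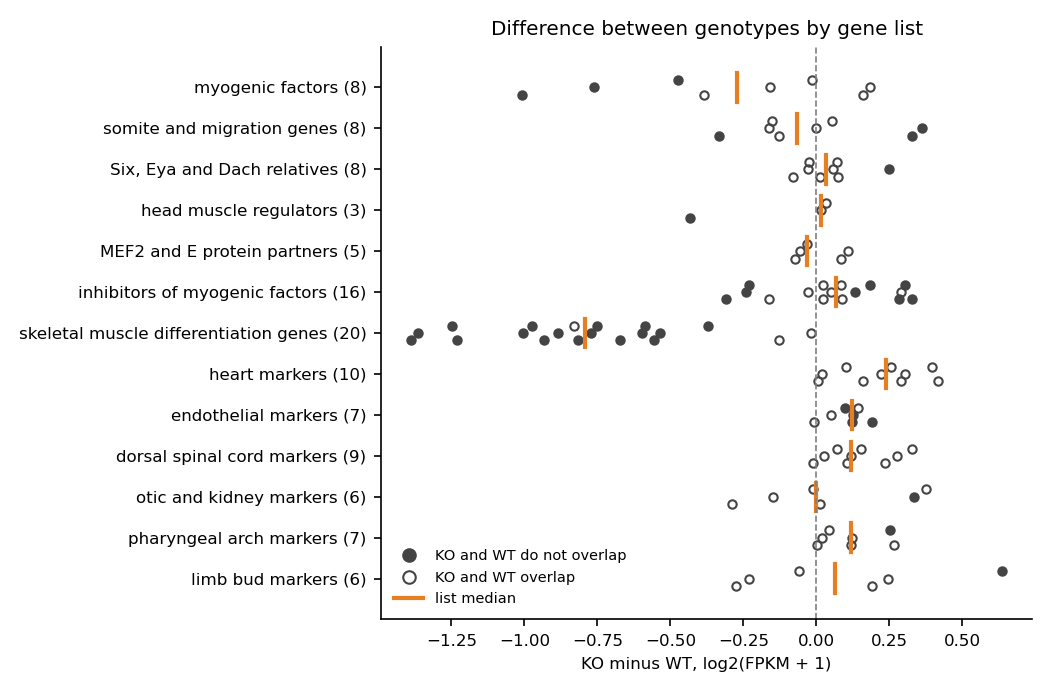
Log2 difference of KO and WT embryos, on the log2(FPKM + 1) scale, for each tested gene (points, filled where the groups do not overlap) by gene list, with the number tested in brackets and the list median as an orange bar. The median is -0.79 for skeletal muscle differentiation genes and -0.27 for the myogenic factors, and between -0.07 and 0.24 for the other lists drawn, which leave out the liver markers.

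The genes whose pattern over the 7 embryos was most like the mean of the 4 bHLH factors were named by the smallest root mean square difference of centred log2(FPKM + 1) values. They were Adcy2 (0.0486), Chodl (0.0652), Col11a1 (0.0700), Cdh15 (0.0709) and Nrk (0.0764), where the profile itself had a root mean square of 0.302. Cdh15 encodes M-cadherin of muscle precursors and was also in the differentiation list. With a pseudocount of 0.1 in place of 1, only 1 of the 5 stayed among the nearest 5. The nearest single gene was Neb for Myog (0.139), Atp2a1, a calcium pump of muscle, for Myod1 (0.0782), Aldh1a2, an enzyme of retinoic acid synthesis, for Myf5 (0.0474), BB218582 for Mef2c (0.0442) and Inhba, an activin subunit, for Msc (0.0540). For the other 4 factors these were 5530400K19Rik for Myf6 (0.0324), Zfp516 for Six4 (0.0292), Onecut3 for Eya1 (0.0378) and Rtn2 for Lbx1 (0.0241). These values cannot be compared between factors, because a profile that varies little leaves little room for a difference. The root mean square of the profile itself was 0.0752 for Lbx1 and 0.0987 for Myf6, but 0.479 for Myod1 and 0.603 for Myog.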

How the data were processed

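Whole E11.5 embryos, 3 KO and 4 WT for SLMAP3, were grouped by the genotype in their labels, and each was a separate animal. From TruSeq RNA v2 libraries the authors derived and deposited an FPKM value per gene in each embryo. The submitters' processing notes name Salmon, DESeq2, MultiQC and GRCm38, with no versions. The mean signal per gene, which the authors computed from counts divided by size factors, served only to estimate depth. The authors' fold changes, standard errors and p-values were not used. Of the FPKM columns, 0 were left unmapped to an embryo.

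Genes averaging 1 FPKM or more over the embryos were compared on the log2(FPKM + 1) scale with limma 3.58.1 in R 4.3.3 (lmFit, eBayes with a trend, no covariate), and p-values were adjusted by Benjamini-Hochberg over all 16095 genes. This step was tested on simulated data. A fold change on that scale understates the change of low genes. Single values and ratios were put to exact permutation tests, over all 35 ways to split the embryos, and the 9 tests of single factors were not adjusted. To estimate depth, FPKM values of low protein-coding genes were rescaled per gene to the authors' mean count. The factor per embryo that brought them nearest to whole reads was then taken. At that factor 44.7% to 63.3% of the values lay within 0.1 of a whole number, so whole reads were not recovered. The median share over the factors tried was 18.2% to 18.8%. Per-length values rest on the transcript lengths that the authors used. Positions came from GENCODE M21 and promoters from RefSeq.

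The factors and the 13 other lists were chosen with earlier results of these data known. Named were the 9 factors, Slmap, Alb, Afp, in each list up to 4 tested genes of smallest p without overlap of the groups, for muscle differentiation also the 4 with the largest difference, and the genes nearest in pattern. The alternatives were other pseudocounts, filters and scalings, the label series as a block or series 10 alone, Afp or Xist as a covariate, a robust fit, embryo weights, values summed per symbol, and each embryo left out.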

Additional observations from a re-analysis of the deposited data

Results flagged for a closer look

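In the WT group, 4 of the 53 genes and ratios examined had an embryo whose gap to the nearest other, divided by the range of the group, was above the 95% critical value of Dixon's test for 4 samples. For independent items chosen without regard to these values, chance gives about 1 in 20, or 2.65 of 53. Not all items here were chosen in that way, so the count cannot be judged against that number. All 4 concerned the WT embryo KOAC10-2. For Myf6 the gap was 0.881 of the range, with 0.312 FPKM in KOAC10-2 and 0.156 FPKM in the next embryo, at an estimated 7 to 25 counts over the 7 embryos. 5530400K19Rik was examined because its pattern over these embryos was the nearest to that of Myf6, so its flag is not separate from that of Myf6. Its gap was 0.914 of the range, with 1.44 FPKM against 1.17 FPKM. For Neb it was 0.928, with KOAC10-2 lowest at 5.08 FPKM and the next WT embryo at 6.16 FPKM, which still left KOAC10-2 above every KO embryo. For Tbx5, a factor of the forelimb and heart, it was 0.868, with KOAC10-2 at 1.81 FPKM and the next WT embryo at 7.61 FPKM.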

How the results depend on the processing

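Under all 21 alternatives 0 of the factors passed an adjusted p of 0.05 in limma, and Myog, Myod1, Mef2c, Msc and Myf5 were lower in KO embryos in each that gave a value. Factors with an unadjusted p under 0.05 numbered 3, all lower in KO embryos, where 6.19% of all genes were lower at that p. They numbered 1 in label series 10 alone, 4 with embryo weights, and 2 to 4 with an embryo left out (2 without KOAC10-8). With embryo weights and without KOAC8-1 the added factor was Six4, higher in KO embryos (log2 difference 0.22 and 0.23). Without KOAC10-5 and without KOAC10-2 it was Msc, lower in KO embryos (-0.53 and -0.48). Six4 ran from 0.13 to 0.23 over the alternatives that gave a value. With an embryo left out, the log2 difference ran from -1.20 to -0.67 for Myog, from -0.93 to -0.49 for Myod1, from -0.56 to -0.35 for Mef2c, from -0.53 to -0.21 for Msc, from -0.26 to -0.08 for Myf5 and from 0.23 to 0.07 for Eya1, and the last value of each was that without KOAC10-8. Lbx1, at -0.01, became 0.00059 with quantile normalization and 0.024 with the series as a block, and ran from -0.064 to 0.024 with an embryo left out. Genes past an adjusted p of 0.05 numbered 6, but 13 in series 10 alone, 10 with Afp as a covariate, 5 with Xist, 4 with a minimum mean of 5 FPKM, 6 to 8 with the other fits of all embryos and 7 to 12 with an embryo left out (12 without KOAC8-1). In series 10 alone the median was 0.11 for endothelial markers and 0.26 for pharyngeal arch markers, which was 0.0023 with embryo weights. For MEF2 and E protein partners it was 0.026 with no filter and 0.015 with embryo weights, and for relatives of Six4, Eya1 and Dach1 -0.038 with embryo weights. With an embryo left out, the medians ran from -0.081 to 0.037 for somite and migration genes, from -0.092 to 0.022 for head muscle regulators, from -0.059 to 0.050 for MEF2 and E protein partners and from 0.10 to 0.13 for endothelial markers. Of the 5 genes nearest in pattern, 1 stayed with a pseudocount of 0.1. The cause of these shifts was not tested. Median-ratio size factors were the same in every embryo (1.00), and that scaling left these counts at 3 and 6. With 3 and 4 embryos no exact test could go below 0.0286, and the estimated counts of Myf6 limit what can be seen of it.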
